A study of Homo sapiens with 9 samples.

Results

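The 10 genes described here encode nucleolar ribosome assembly factors: NCL, NPM1, FBL, NOP56, NOP58, DKC1, NOLC1, NOP2, BOP1 and WDR12. They were taken by name from a table of 35876 gene symbols, and all 10 were found and all 10 passed the filter on low counts. The table holds estimated read counts of 9 RNA sequencing libraries of HEK293, an established human embryonic kidney cell line, from a study of a reversible knockout switched by a chemical. By their genotype labels all 9 libraries carried Cas9, an RNA-guided nuclease, and each label begins with CC, a prefix the labels do not explain. The libraries fall into 3 groups of 3 replicates, with the genotypes CC_Cas9 (here the Cas9 group), CC_Cas9_Cre (the Cre group, with the recombinase Cre) and CC_Cas9_Flpo (the Flpo group, with the recombinase Flpo). The labels give no target gene, no chemical treatment, no time and no promoter for Cas9, Cre or Flpo, and they do not say whether replicates were separate cultures or whether a line was 1 clone. The p-values therefore measure only the spread between these libraries, which may be technical.

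Ribosomes are built in the nucleolus, where RNA polymerase I copies ribosomal DNA into a long precursor RNA that is folded, modified, cut and joined to ribosomal proteins. Box C/D small nucleolar ribonucleoproteins, built on FBL, NOP56 and NOP58, add methyl groups to ribose, and box H/ACA particles, built on DKC1, turn uridine into pseudouridine. NPM1 and NCL are abundant nucleolar phosphoproteins that bind RNA and chaperone proteins. In proliferating cells genes of this pathway are usually expressed at high levels, since growth needs ribosomes.

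The libraries were shallow and uneven. Totals ran from 993805 to 3761700 counts in the Cas9 group, from 213791 to 1701644 in the Cre group and from 4989407 to 8833391 in the Flpo group. The Flpo totals thus overlapped neither the Cre totals nor the Cas9 totals. Cre replicate 2 was the smallest library, and there 3 counts equalled 11.2 CPM, against 0.479 CPM in Flpo replicate 3. CPM is a gene's count scaled to a library total of 1000000, here with TMM, an edgeR factor that lines up the bulk of genes between libraries. Of the 9 markers chosen for HEK293 cells, 3 (VIM, KRT8 and KRT18) had at least 10 counts in every library, while the kidney factor PAX2 had 1 count in all. The 9 summed to between 703 and 1439 CPM in the Cas9 group, 598 and 1101 CPM in the Cre group and 1587 and 5414 CPM in the Flpo group. Of the Flpo sums, KRT8 alone held 809 to 3249 CPM and KRT18 held 477 to 1575 CPM. The extraction protocol in the labels mentions livers, but none of the 7 liver markers exceeded 10 counts in a library. The 3 fibroblast markers summed to between 198 and 749 CPM in the Cas9 group, 442 and 5603 CPM in the Cre group and 200 and 268 CPM in the Flpo group. The sum of 5603 CPM was that of Cre replicate 2, with COL1A1 at 1631 and COL1A2 at 3927 CPM. Of the 3 blood markers CD3E was at 0 in every library and PTPRC had at most 4 counts, while CD68 stood at 6.31 to 18.3, 4.87 to 22.4 and 25.3 to 76.3 CPM in the Cas9, Cre and Flpo groups. The part of depth and of these markers in the results below was not tested.

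The member whose group difference passed the test was NPM1, and its counts need a word on where its reads can fall. NPM1 lies on chromosome 5 (171387116 to 171411137, plus strand, GENCODE release 29 on GRCh38), and its main transcript of 1758 bases shares 52.8% of its 31-base words with transcripts of other genes. The table has 45 rows of NPM1 pseudogenes, copies of the gene without its introns, of which 39 had a count. Over 31 copies that cover at least 90% of its coding sequence, identity to NPM1 ran from 84.6% to 98.7%. The copy closest to NPM1 is NPM1P27, a processed pseudogene on chromosome 5 (93682838 to 93683667, minus strand), with 11 mismatches over 828 aligned bases. The stretch below, coding bases 51 to 140 of NPM1, was chosen as the 90 bases where the copies differ most, and capitals mark the 4 differing bases. Reads that miss such bases can be assigned to either row.
NPM1: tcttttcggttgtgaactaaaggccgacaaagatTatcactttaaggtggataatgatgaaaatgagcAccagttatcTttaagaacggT
NPM1P27: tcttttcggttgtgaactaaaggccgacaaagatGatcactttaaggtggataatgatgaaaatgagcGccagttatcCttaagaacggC

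Within the group of abundant nucleolar chaperones, NPM1 separated the Flpo libraries from all others. Over all tested genes 12.8% were higher in every Flpo than in every Cas9 library. Between Cre and Flpo 27.9% were lower in every Cre than in every Flpo library. NPM1 stood at 54.8, 236 and 279 CPM in Cas9 replicates 1, 2 and 3. It stood at 165, 44.8 and 48.0 CPM in the Cre libraries and at 1055, 379 and 1274 CPM in the Flpo libraries, in the same order of replicates. Every Flpo library lay above every Cas9 and Cre library, and Cas9 replicate 1 lay among the Cre libraries. The keratin genes KRT8 and KRT18 were high in the same libraries, KRT8 at 809 to 3249 CPM in the Flpo group against 304 to 535 in the Cas9 group and 119 to 415 in the Cre group, and KRT18 at 477 to 1575 against 46.5 to 215 and 21.4 to 83.8 CPM. The part of these keratins in the NPM1 difference was not tested. The other HEK293 markers had lower means in the Flpo than in the Cas9 group. Among them were VIM (379 against 400 CPM), ENO2 (49.9 against 95.0 CPM) and NEFL (12.0 against 21.6 CPM). Against the Flpo group, NPM1 was 10.3-fold lower in the Cre group by edgeR's quasi-likelihood test, a log2 fold change of -3.36 (standard error 0.82, adjusted p = 0.0204, with p-values adjusted over all tested genes). It was the 1 member of 10 past an adjusted p of 0.05 in that comparison, in which 20.5% of 11905 tested genes passed and 14.3% passed as lower. The median log2 fold change of all tested genes was -0.34, and relative to it NPM1 stood at -3.02. Against the Cas9 group, NPM1 had a log2 fold change of 2.25 in the Flpo group (standard error 0.78, edgeR adjusted p = 0.139) and of -1.12 in the Cre group (standard error 0.76, edgeR adjusted p = 0.62). With 1 library left out, the adjusted p of NPM1 in Flpo against Cas9 ran from 0.0262, without Flpo replicate 2, to 0.396. That lowest value comes from a fit in which 21.3% of all genes passed.

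The NPM1 call did not hold in every fit with 1 library left out. Without Cre replicate 2, Cre replicate 3, Flpo replicate 1 or Flpo replicate 3 the edgeR adjusted p was 0.0649, 0.107, 0.08 and 0.0548, with log2 fold changes between -3.20 and -3.04. These fits lost most calls of other genes too. No gene passed (0%) without Cre replicate 2, Cre replicate 3 or Flpo replicate 1, and 3.28% of all genes passed without Flpo replicate 3. With the log2 total count of each library as a covariate the value was -0.90 with an edgeR adjusted p of 0.92. In that fit 0% of all genes passed, and depth and group cannot be told apart where totals do not overlap. Pseudogene rows held 37, 6 and 24 counts in Cas9 replicate 1, Cre replicate 2 and Cre replicate 3, which was 56.1%, 50% and 42.9% of the NPM1 count there. In the other 6 libraries the share was between 0.409% and 12%. NPM1P27 alone had 36, 1 and 22 counts in those 3 libraries, and 12, 7 and 24 in the Flpo libraries. With all pseudogene counts added to NPM1, the log2 fold change between Cre and Flpo was -3.13 and the edgeR adjusted p 0.019.

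**Figure D1:**
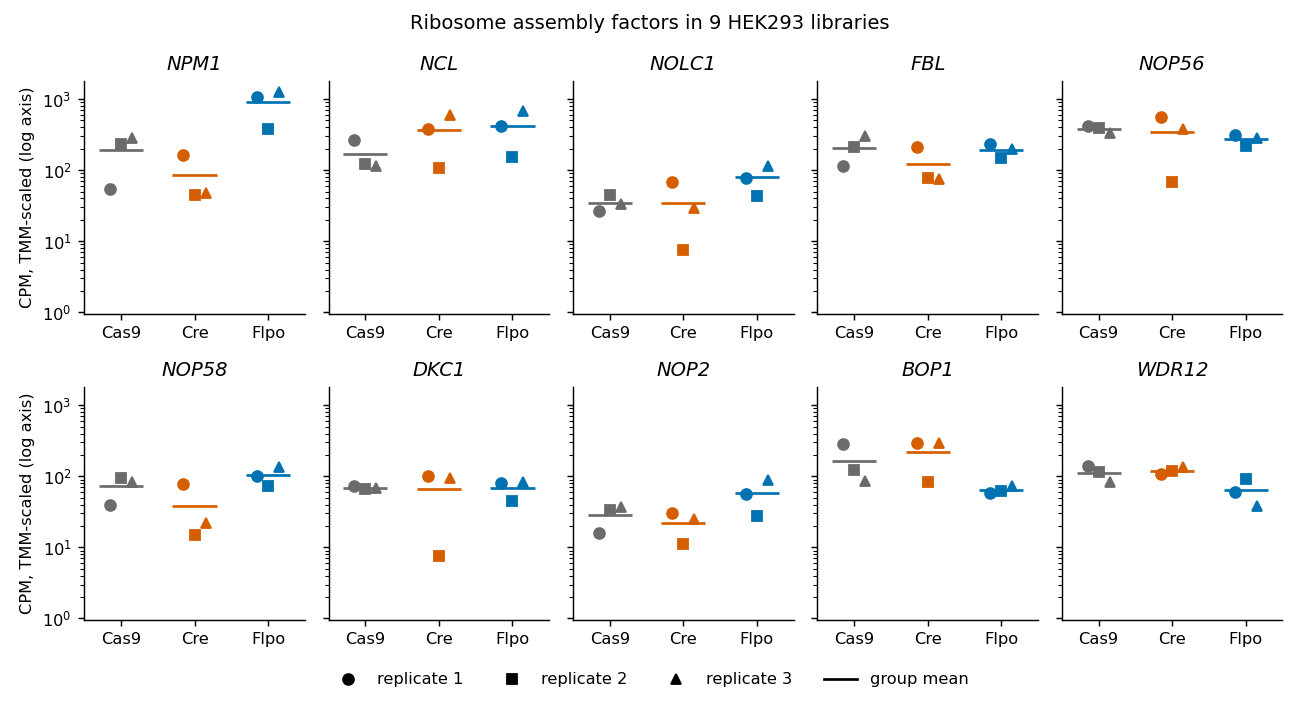
Level of each member in each library, in CPM with TMM scaling on a log axis, by group; symbols are replicates and lines are group means (n = 3). NPM1 in the Flpo libraries (379 to 1274 CPM) lies above all other libraries, and most members are low in Cre replicate 2. Over all tested genes 12.8% were wholly higher in Flpo than in Cas9, and 27.9% wholly lower in Cre than in Flpo.

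NCL, the nucleolin gene, differed as much between replicates as between groups. NCL lies on chromosome 2 (231453531 to 231483641, minus strand). It stood at 263, 122 and 115 CPM in the Cas9 libraries, 378, 108 and 601 CPM in the Cre libraries and 414, 153 and 681 CPM in the Flpo libraries. All 3 groups overlapped. The log2 fold change of NCL was 1.13 in Cre and 1.32 in Flpo against Cas9, with standard errors of 0.72 and edgeR adjusted p of 0.619 and 0.322. NOLC1 encodes a phosphoprotein that shuttles between nucleolus and cytoplasm and binds both kinds of small nucleolar particle (chromosome 10, 102152176 to 102163871, plus strand). It stood at 26.6, 44.8 and 33.4 CPM in the Cas9 libraries, 67.2, 7.47 and 29.2 CPM in the Cre libraries and 78.5, 43.4 and 116 CPM in the Flpo libraries. Its Cre value in replicate 2 rests on 2 counts, under the 3-count floor. The NOLC1 groups overlapped, and its log2 fold change of 1.18 in Flpo against Cas9 had an edgeR adjusted p of 0.312.

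None of the box C/D proteins passed the test in any of the 3 comparisons, and differences between them were not tested. FBL is the methyltransferase of the particle and lies on chromosome 19 (39834458 to 39846414, minus strand). FBL stood at 113, 213 and 298 CPM in the Cas9 libraries, 209, 78.4 and 74.6 CPM in the Cre libraries and 237, 150 and 196 CPM in the Flpo libraries. NOP56, a scaffold of the particle on chromosome 20 (2652145 to 2658393, plus strand), stood at 412, 393 and 334 CPM in the Cas9 libraries, 567, 67.2 and 383 CPM in the Cre libraries and 311, 222 and 280 CPM in the Flpo libraries. All 3 Flpo libraries lay below all 3 Cas9 libraries for NOP56, as they did for 12.2% of all tested genes. The log2 fold change was only -0.49 (standard error 0.65, edgeR adjusted p = 0.696). NOP58, the other scaffold, on chromosome 2 (202265716 to 202303666, plus strand), stood at 39.9, 95.2 and 82.0 CPM in the Cas9 libraries, 78.0, 14.9 and 22.3 CPM in the Cre libraries and 102, 72.1 and 135 CPM in the Flpo libraries. NOP58 overlapped between all groups and had a log2 fold change of -1.34 in Cre against Flpo (standard error 0.61, edgeR adjusted p = 0.121). With 1 library left out that p ran from 0.0281, without Cre replicate 1, to 0.384, and 22.7% of all genes passed in the fit without Cre replicate 1.

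Ratios of counts within a library do not depend on how libraries are scaled. The ratio of NOP56 to NOP58 counts was 3.06, 3.08 and 2.08 in the Flpo libraries, 10.3, 4.13 and 4.07 in the Cas9 libraries and 7.27, 4.5 and 17.2 in the Cre libraries. Every Flpo ratio thus lay below every other ratio. The ratio of NOP56 to FBL was close among the Flpo libraries (1.41 ± 0.0856, SD, n = 3) and spread widely in the Cas9 group (2.20 ± 1.30) and the Cre group (2.90 ± 2.14). The ratio of NOP58 to FBL moved less, at 0.429, 0.48 and 0.687 in the Flpo libraries, 0.353, 0.447 and 0.275 in the Cas9 libraries and 0.374, 0.19 and 0.299 in the Cre libraries. In Cre replicate 2 the ratios with NOP58 rest on 4 counts of that gene. All of these ratios were chosen after the values were seen and are given without a test.

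Several members also carry small nucleolar RNAs in their introns, guides of the kinds that proteins of this group bind. GENCODE places 14 such RNAs inside 4 members: 5 in NOP56, 4 in NOP58, 3 in NCL and 2 in DKC1, none of which overlaps an exon of the host's main transcript. The data hold no counts under these names, so their levels could not be analysed here. A box C/D RNA from each of the box C/D hosts and NCL is shown as an example of the RNA that FBL, NOP56 and NOP58 hold, with capitals marking the box C letters TGATGA and the box D letters CTGA. SNORD57 comes from intron 10 of NOP56 (chr20:2656939-2657010, plus strand, GRCh38), SNORD11 from intron 9 of NOP58 (chr2:202293051-202293134, plus strand, GRCh38) and SNORD20 from intron 11 of NCL (chr2:231456444-231456523, minus strand, GRCh38).
SNORD57: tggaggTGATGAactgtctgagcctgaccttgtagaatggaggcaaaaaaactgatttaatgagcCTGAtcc
SNORD11: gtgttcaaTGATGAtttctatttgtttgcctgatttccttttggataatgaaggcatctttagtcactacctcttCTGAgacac
SNORD20: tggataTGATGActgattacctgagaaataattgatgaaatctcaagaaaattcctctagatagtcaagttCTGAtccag

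DKC1, the pseudouridine synthase of the box H/ACA particle, had nearly the same mean in the 3 groups, with a wide spread in the Cre group. It lies on chromosome X (154762742 to 154777689, plus strand). DKC1 stood at 73.1, 65.4 and 69.4 CPM in the Cas9 libraries, 101, 7.47 and 93.5 CPM in the Cre libraries and 79.4, 45.0 and 83.7 CPM in the Flpo libraries. The Cre value in replicate 2 rests on 2 counts, under the floor, and the other 8 libraries lay between 45.0 and 101 CPM. Means were 69.3 ± 3.86, 67.3 ± 51.9 and 69.3 ± 21.2 CPM (SD, n = 3 each), and the log2 fold change was 0.02 in Cre against Flpo with a standard error of 0.63. With that standard error, changes many times larger than 0.02 in either direction cannot be told from none. The sign of the DKC1 value turned under several other scalings and fits.

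The 3 small partners of DKC1 in the particle, GAR1, NOP10 and NHP2, all passed as lower in Cre against Flpo, as did 14.3% of all tested genes. In edgeR no gene passed (0%) without Cre replicate 2, Cre replicate 3 or Flpo replicate 1. The same held with the log2 total count as covariate. GAR1 had 3, 0 and 0 counts in the Cre libraries, 6, 18 and 26 in the Cas9 libraries and 131, 62 and 185 in the Flpo libraries (edgeR adjusted p = 0.0167 for Cre against Flpo). NOP10 had 6, 1 and 1 counts in the Cre libraries and 365, 109 and 326 in the Flpo libraries (edgeR adjusted p = 0.0231). NHP2 had a log2 fold change of -2.60 (standard error 0.76, edgeR adjusted p = 0.0334). With DKC1 as numerator, the ratio to NHP2 counts was 0.234, 0.566 and 0.332 in the Flpo libraries, 2.93, 1.27 and 0.529 in the Cas9 libraries and 1.54, 0.5 and 3.76 in the Cre libraries. The ratio of 0.5 in Cre replicate 2 rests on 2 counts of DKC1 and 4 of NHP2. Whether DKC1 differed from its partners in its change was not tested.

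NOP2, a methyltransferase that acts on a cytosine of the large ribosomal RNA, lies on chromosome 12 (6556863 to 6568691, minus strand). It stood at 15.8, 33.3 and 37.1 CPM in the Cas9 libraries, 30.7, 11.2 and 24.9 CPM in the Cre libraries and 56.8, 27.3 and 90.04 CPM in the Flpo libraries. The value in Cre replicate 2 rests on 3 counts, at the floor. NOP2 overlapped between all groups, with a log2 fold change of -1.30 in Cre against Flpo (standard error 0.59, edgeR adjusted p = 0.119). With 1 library left out that p ran from 0.0307, without Flpo replicate 2, to 0.397, and 44.1% of all genes passed in the fit without Flpo replicate 2. Of its 31-base words 83.8% also occur in other genes, nearly all in the overlapping locus AC006064.6 on the same strand, so its count depends on how reads were split between those rows. FBL, DKC1 and BOP1 shared no such word with another gene.

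BOP1 and WDR12 belong, with PES1, to the PeBoW complex, which is needed to process the precursor of the large subunit's RNA. Both were higher in every Cre library than in every Flpo library, as were 15.2% of all tested genes, without passing the test. BOP1 lies on chromosome 8 (144262102 to 144291370, minus strand). It stood at 283, 122 and 85.4 CPM in the Cas9 libraries, 293, 82.1 and 293 CPM in the Cre libraries and 57.8, 62.9 and 72.6 CPM in the Flpo libraries. The Flpo libraries were the lowest for BOP1 and close to each other, at 64.4 ± 7.54 CPM (SD, n = 3). The log2 fold change of BOP1 in Cre against Flpo was 1.80 with a standard error of 0.60. The edgeR adjusted p was 0.0506, against 0.0107 in DESeq2, where 33.4% of all genes passed. With 1 library left out the edgeR adjusted p ran from 0.033 to 0.195. It was under 0.05 without Cas9 replicate 1 (0.033) and without Flpo replicate 2 (0.041). In those 2 fits 24.5% and 44.1% of all genes passed. In Flpo against Cas9 the log2 fold change of BOP1 was -1.34 (standard error 0.60, edgeR adjusted p = 0.232), again without overlap. In that comparison 12.2% of all tested genes were wholly lower.

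WDR12 lies on chromosome 2 (202874782 to 203014798, minus strand), where it overlaps CARF on the other strand, and the use of strand in counting is not given in the sources used here. WDR12 stood at 140, 116 and 82.5 CPM in the Cas9 libraries, 107, 119 and 133 CPM in the Cre libraries and 60.2, 91.2 and 38.6 CPM in the Flpo libraries. It was the member with the least spread over the 9 libraries, 1.85 on the log2 scale from lowest to highest against 4.77 for NPM1 and a median of 3.15 for all tested genes. The log2 fold change in Cre against Flpo was 0.92 (standard error 0.47, edgeR adjusted p = 0.157), and with 1 library left out that p ran from 0.0421, again without Flpo replicate 2, to 0.443. In the fit without Flpo replicate 2, 44.1% of all genes passed. PES1 had a log2 fold change of -0.58 (edgeR adjusted p = 0.495), and the ratio of BOP1 to PES1 counts was 1.41, 2.28 and 1.26 in the Flpo libraries, 11.3, 4.42 and 2.23 in the Cas9 libraries and 6.62, 22 and 9.74 in the Cre libraries. The ratio of 22 in Cre replicate 2 rests on 1 count of PES1.

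**Figure D2:**
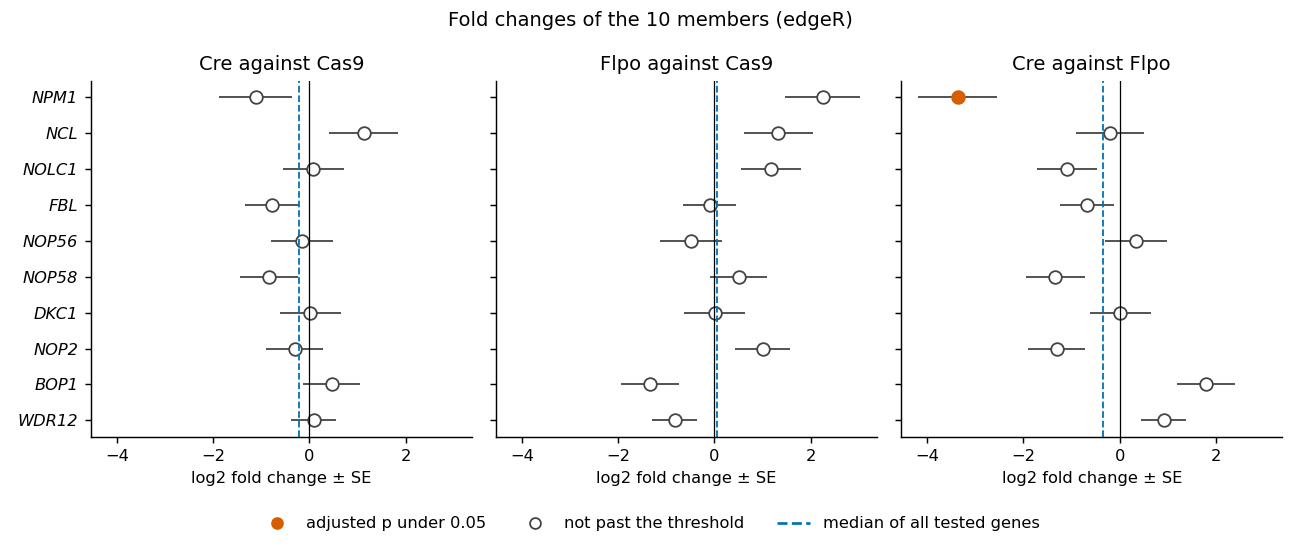
Log2 fold change of each member with its standard error in the 3 comparisons (edgeR, 9 libraries in the fit); filled points passed an adjusted p of 0.05 and the dashed line is the median of all tested genes. NPM1 in Cre against Flpo (-3.36) is the filled point, and BOP1 and WDR12 lie on the other side of 0.

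Taking the 10 members comparison by comparison, their directions were mixed. Between Cre and Cas9, which addresses what Cre adds to cells with Cas9, 0 of 10 members passed edgeR's test (0% of all genes passed), 0 had an unadjusted p under 0.05 (7.38% of all genes did) and DESeq2 gave 0 as well. The median log2 fold change of the members was -0.07, beside -0.22 for all tested genes, and no member's groups were without overlap (3.46% of genes were wholly higher and 6.37% wholly lower). Between Flpo and Cas9, 0 of 10 passed (0.227% of genes passed), 2 had an unadjusted p under 0.05, NPM1 and BOP1 (20% of genes did), and DESeq2 called NPM1 with an adjusted p of 0.0353 (8.95% of genes passed there). The median was 0.25, beside 0.05 for all genes. NPM1 was wholly higher (12.8% of genes were), and NOP56 and BOP1 were wholly lower (12.2% were).

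Between Cre and Flpo, 4 members had an unadjusted p under 0.05, NPM1, BOP1, NOP2 and NOP58, which is near the 39.8% of all genes that did. The members' median log2 fold change was -0.43, beside -0.34 for all genes. NPM1 was wholly lower in the Cre group (27.9% of genes were), and BOP1 and WDR12 were wholly higher (15.2% were). The 2 comparisons with Cas9 share the Cas9 libraries, so their values are not independent. Scaling set the sign of the smaller values: without TMM the median of all genes between Cre and Flpo moved from -0.34 to 0.44, and NCL and FBL turned from -0.19 and -0.67 to 0.62 and 0.11.

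The make-up of the members' counts within each library restates the same counts without any scaling and is not separate support. A larger NPM1 share makes the shares of the other members smaller. Together the members held between 0.0678% and 0.241% of a library's counts. NPM1 was 43%, 30.4% and 42.9% of the member counts in the Flpo libraries, 3.86%, 16.4% and 19.7% in the Cas9 libraries and 8.28%, 8.28% and 2.82% in the Cre libraries. BOP1 was 2.36%, 5.04% and 2.45% in the Flpo libraries, against 6.03% to 19.9% in the Cas9 libraries and 14.7% to 17.2% in the Cre libraries. NPM1 counts were thus 18.3, 6.03 and 17.5 times the BOP1 counts in the Flpo libraries, 0.563, 0.545 and 0.164 times in the Cre libraries, and 0.194, 1.94 and 3.27 times in the Cas9 libraries. Cas9 replicate 1 lay within the range of the Cre libraries for NPM1 and above it for BOP1, and Cas9 replicates 2 and 3 lay between the Cre and Flpo libraries for both genes.

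**Figure D3:**
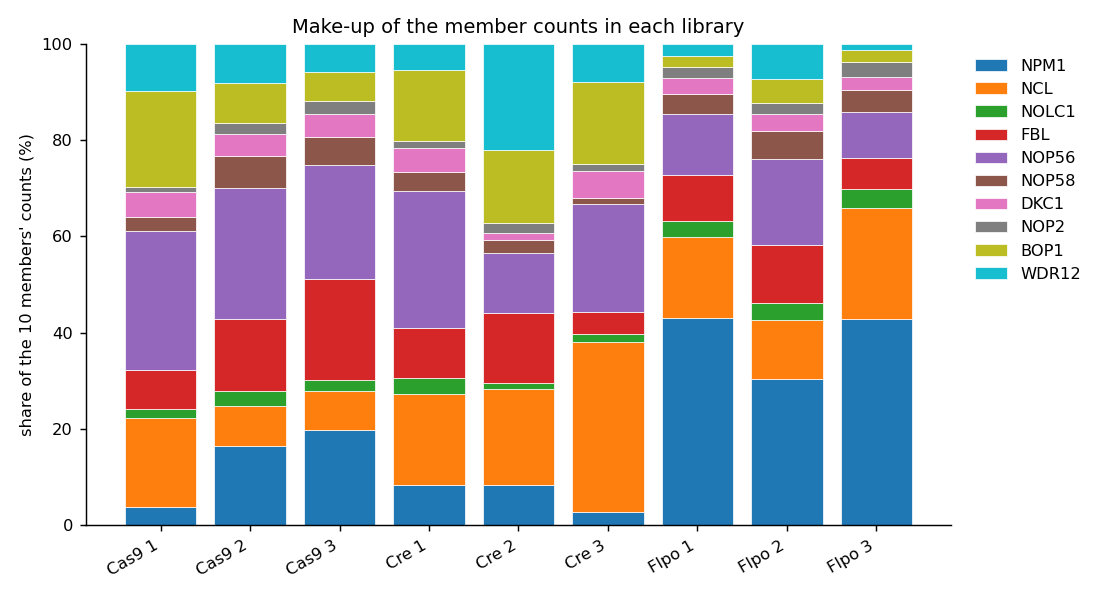
Share of each member in the summed counts of the 10 members, in percent, for each of the 9 libraries. The NPM1 share is largest in the 3 Flpo libraries (30.4% to 43%) and the BOP1 share is smallest there (2.36% to 5.04%).

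To compare levels between genes, CPM was divided by the length of the main transcript in kilobases. In the Cas9 group FBL (179 ± 80.0) and NOP56 (158 ± 17.1 CPM per kilobase, SD, n = 3) were highest, followed by NPM1 (108 ± 67.6), BOP1 (70.9 ± 45.6), NCL (41.3 ± 20.7), NOP58 (35.4 ± 14.1) and DKC1 (26.9 ± 1.497). WDR12 (13.9 ± 3.54), NOP2 (9.46 ± 3.74) and NOLC1 (8.88 ± 2.33) were lowest. Between neighbours in this order, the ranges over the 3 Cas9 libraries overlapped for all but DKC1 and WDR12. In the Flpo group NPM1 led at 513 ± 265 CPM per kilobase. Its range over the 3 libraries did not overlap that of the next gene, FBL (167 ± 37.5), nor did that of NOP58 (50.2 ± 15.3) overlap that of BOP1 (28.0 ± 3.28), while the ranges of the other neighbours did. In the Cre group NOP56 led at 141 ± 105, with FBL at 104 ± 65.7 and BOP1 at 96.7 ± 52.9, and these overlapped. The place of WDR12 rests on a transcript of 8100 bases, the longest of the members, and which transcript these cells use was not tested.

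The wider assembly pathway was examined as 138 genes in 5 lists, which include a list of 3 paralogs of members (NPM2, NPM3 and FBLL1). Of the paralogs only NPM3 was tested. Between Cre and Flpo 34 of 134 tested genes passed in edgeR, 28 lower and 6 higher in the Cre group (20.5% of all genes passed, 14.3% lower and 6.17% higher). Their median log2 fold change was -1.03, beside -0.34 for all genes. Without Cre replicate 2, Cre replicate 3 or Flpo replicate 1 none of them passed, nor did any of the other tested genes. In the same test 5 pathway genes passed without Flpo replicate 3 (3.28% of all genes), 14 without Cas9 replicate 2 (10% of all genes) and 56 without Flpo replicate 2 (44.1% of all genes). Against Cas9, 0 of 134 passed in the Cre group (12 with an unadjusted p under 0.05 beside 7.38% of all genes, 0 in DESeq2) and 0 of 134 in the Flpo group. In the latter 30 had an unadjusted p under 0.05 (20% of all genes did), DESeq2 called 6 (8.95% of all genes) and edgeR without Flpo replicate 2 called 21 (21.3% of all genes).

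Among 13 partners of the small nucleolar particles, 5 passed as lower in the Cre group and 0 as higher (14.3% and 6.17% of all genes did). Besides the DKC1 partners these were SNU13, the fourth core protein of the box C/D particle, at a log2 fold change of -2.82 (standard error 0.74, edgeR adjusted p = 0.0244), and NUFIP1, which helps to assemble that particle, at -3.01 (standard error 0.97, edgeR adjusted p = 0.0444). NUFIP1 had 8, 0 and 1 counts in the Cre libraries against 109, 49 and 146 in the Flpo libraries. Of 51 tested genes for assembly of the large subunit (60S), 12 passed as lower and 1 as higher, beside the same shares of all genes. RSL24D1, a placeholder for a ribosomal protein, had 3, 0 and 6 counts in the Cre libraries against 319, 95 and 429 in the Flpo libraries. GNL3, the nucleostemin GTPase, and the RNA helicase DDX18 had log2 fold changes of -3.15 and -2.92, and PELP1, part of a complex that acts on the large subunit, was higher in Cre than in Flpo libraries by 2.06 on the log2 scale. PELP1 averaged 170 CPM in the Cas9 group, 207 CPM in the Cre group and 50.2 CPM in the Flpo group, and its log2 fold change in Cre against Cas9 was 0.30 (edgeR adjusted p = 0.832).

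Of 53 tested genes for the small subunit (40S), 10 passed as lower and 5 as higher in the Cre group (14.3% and 6.17% of all genes did). ABT1, UTP18 and PWP2 led the lower genes, with 5, 0 and 2 counts, 12, 1 and 1 counts, and 11, 0 and 0 counts in the Cre libraries, against at least 34, 59 and 50 counts in every Flpo library. KRR1, WDR3 and DDX10, factors of the small-subunit processome or its maturation, were higher in Cre than in Flpo libraries by 2.06, 1.93 and 1.92 on the log2 scale. Of 16 genes of RNA polymerase I and its cofactors, 1 passed as lower and 0 as higher. It was POLR1B, the second-largest subunit, at -2.18 (standard error 0.64, edgeR adjusted p = 0.0343). That count of 1 in 16 is below the 14.3% of all genes that passed as lower. TCOF1, a nucleolar phosphoprotein related to NOLC1, was at 0.39 with an edgeR adjusted p of 0.521.

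Transcript length moved with these calls. The 28 lower pathway genes had a median length of 2163 bases, the 6 higher ones 6394 bases and the 100 that did not pass 2835 bases. Over all tested genes with a length the medians were 2296, 3341 and 3394 bases. NPM1 at 1758 bases was the second shortest member, FBL at 1160 the shortest. The part of length in these differences was not tested.

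**Figure D4:**
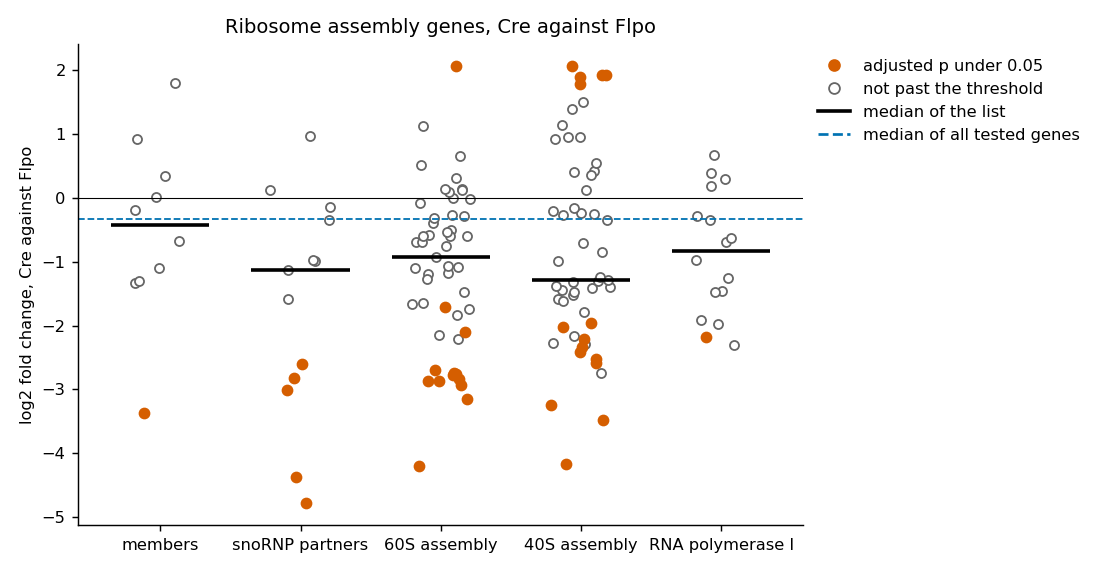
Log2 fold change in Cre against Flpo for the members and 4 lists of assembly genes (edgeR); filled points passed an adjusted p of 0.05, black bars are list medians and the dashed line is the median of all tested genes (-0.34). Lower calls outnumber higher ones in each of the 4 lists, 28 against 6 in all. Over all tested genes 14.3% passed as lower and 6.17% as higher.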

How the data were processed

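RNA was sequenced from 9 HEK293 libraries in 3 groups of 3, grouped by sample title. The authors deposited 1 table of estimated counts per gene symbol, not normalized. Salmon 0.14.1 and the build hg38 are named in the submitters' processing notes, with no role given; the annotation, filters and use of strand are not given in the sources used here. Estimated counts were rounded to whole numbers, although the design was written for a count table in general.

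Differences were tested on the whole table with edgeR 4.0.16 (R 4.3.3): TMM scaling, all 9 libraries in a single quasi-likelihood fit without covariates, edgeR's default filter (minimum count 10, minimum total 15), which left 11905 of 35876 genes, and Benjamini-Hochberg adjustment with a threshold of 0.05. Standard errors were obtained as the size of the log2 fold change over the root of its F statistic. CPM values use TMM. Lengths and overlaps are from GENCODE 29, using the APPRIS principal transcript with a RefSeq match. A floor is 3 counts in a library and covers counting error only, since PCR copies are not separate molecules. The code was tested on simulated data. Alternatives used DESeq2 1.42.0, limma 3.58.1 and Python 3.11.15.

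Members and lists were chosen with earlier results of these data known. From each list and comparison, the called genes averaging 10 counts or more were ranked by log2 fold change, and up to 3 from each end are named; paralogs and the 5 genes nearest the members' mean pattern are named too. NHP2, SNU13, PES1 and TCOF1 were named in addition, after their values were seen, as partners or relatives of members.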

Additional observations from a re-analysis of the deposited data

Results flagged for a closer look

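Cre against Flpo tests directly whether the recombinase groups' differences from Cas9 differ, and the named genes past its threshold are given here for that reason. NPM1 had a log2 fold change of -3.36. Of the small nucleolar particle partners GAR1, NOP10 and NUFIP1 were at -4.78, -4.38 and -3.01. Of 60S genes RSL24D1, GNL3 and DDX18 were at -4.20, -3.15 and -2.92 and PELP1 at 2.06. Of 40S genes ABT1, UTP18 and PWP2 were at -4.16, -3.47 and -3.25, and KRR1, WDR3 and DDX10 at 2.06, 1.93 and 1.92. POLR1B was at -2.18. Fitted values of GAR1, NUFIP1, RSL24D1, ABT1 and PWP2, each with a Cre library at 0, depend on the prior count. Groups of 3 are too small for a check of single outlying libraries.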

How the results depend on the processing

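Results were recomputed under 9 alternatives and 9 fits without 1 library each. Shares of all tested genes stand in parentheses. Between Cre and Flpo, where 1 member and 34 pathway genes passed (20.5%), DESeq2 gave 2 members (33.4%), no TMM 3 (24.2%), thinning to the smallest library 2 members and 15 pathway genes (21.1%), the log2 total count as covariate 0 and 0 (0%), and limma voom with quality weights 7 and 86 (67.6%). Leaving out 1 library gave 0 to 4 members and 0 to 56 pathway genes (0% to 44.1%). Between Flpo and Cas9, where 0 and 0 passed (0.227%), DESeq2 gave 1 member and 6 pathway genes (8.95%), no filter 1 and 4 (4.6%), quality weights 6 and 76 (61%), and leaving out 1 library 0 to 1 and 0 to 21 (0% to 21.3%). Between Cre and Cas9, quality weights gave 4 and 37 (33.3%), and leaving out 1 library 0 in each fit (0%). The causes were not tested.

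The replicate number as a block gave 18 pathway genes between Cre and Flpo (13.2% of all genes passed) and changed no call of a member there (NPM1 adjusted p = 0.0349 in edgeR). Deviations of same-numbered libraries correlated on average at -0.32 for Cre with Cas9, -0.08 for Flpo with Cas9 and 0.05 for Cre with Flpo. Single values ran from -0.45 to -0.08, -0.51 to 0.51 and -0.28 to 0.33, in that order. Such values cannot show whether same-numbered libraries were handled together. With the block DKC1 turned to -0.32, -0.12 and -0.20 in those comparisons, and NOLC1 to -0.23 in the first.

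Signs also turned for values within their standard error of 0 or under heavier changes. DKC1 turned to -0.0169 and -0.0319 with DESeq2 and -0.00714 and -0.00812 with no filter (Cre against Cas9, Cre against Flpo), to -0.0288 and -0.0525 with only the groups compared (Cre and Flpo against Cas9), to -0.64, -0.0852 and -0.55 with thinning, to -0.57 without TMM in Flpo against Cas9 and to -0.24 with quality weights in Cre against Flpo. Without TMM NOP56 was at 0.0601 (Cre against Cas9), NOP58 at -0.0145 (Flpo against Cas9), and NCL and FBL at 0.62 and 0.11 (Cre against Flpo). With quality weights NOLC1 was at -0.47 (Cre against Cas9), FBL at 0.0882 (Flpo against Cas9) and NOP56 at -0.19 (Cre against Flpo). With the total count as covariate, NOP56, NOP2 and WDR12 were at 0.28, 0.40 and -0.16 (Cre against Cas9), NOP58, DKC1, NOLC1 and NOP2 at -0.88, -1.52, -0.42 and -0.21 (Flpo against Cas9), and NCL, FBL, NOP58, NOLC1 and NOP2 at 0.98, 0.93, 0.67, 1.09 and 0.61 (Cre against Flpo). Over the fits without 1 library, ranges that crossed 0 were -0.75 to 0.33 for NOP56, -0.36 to 0.49 for DKC1, -0.80 to 0.48 for NOLC1 and -0.10 to 0.26 for WDR12 (Cre against Cas9), -0.41 to 0.24 for FBL and -0.18 to 0.22 for DKC1 (Flpo against Cas9), and -0.73 to 0.34 for NCL, -0.24 to 0.83 for NOP56 and -0.35 to 0.51 for DKC1 (Cre against Flpo). NPM1 and BOP1 kept their direction in Cre against Flpo in every alternative, from -4.29 to -0.90 and from 1.56 to 2.58.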

Other observations

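NPM3, a relative of NPM1 in the nucleoplasmin family, was the 1 paralog of 3 that passed the filter. It had 18, 62 and 42 counts in the Cas9 libraries, 50, 4 and 4 in the Cre libraries and 42, 32 and 27 in the Flpo libraries. Its log2 fold change in Flpo against Cas9 was -1.66 (edgeR adjusted p = 0.218), in the other direction than the 2.25 of NPM1. NPM2 had at most 8 counts and FBLL1, a relative of FBL, at most 9 in any library.

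The mean of the 10 members, after centring each on its own mean log2 CPM, was lowest in Cre replicate 2 (-1.44) and highest in Flpo replicate 3 (0.70). The tested genes closest to that pattern over the 9 libraries were SEC16A, NUDC, GPATCH4, DCAF8 and GART, with root mean square distances of 0.142 to 0.182 on the log2 scale. The members themselves lay at 0.444 (NOP2) to 1.35 (NPM1) from their own mean, and the median of all other tested genes was 1.03. The patterns share the libraries' depth.

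RefSeq promoter windows (GRCh38.p14, 250 bases before to 50 after the start) were at hand for 7 members. The letters CACGTG, which read the same on both strands, occurred in the windows of FBL and NOP2, and in 7.26% of all 35116 windows.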
